A study of Rattus norvegicus with 18 samples.

Results

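The genes described are 7 components of the G1 phase control of the cell cycle: the D cyclins Ccnd1, Ccnd2 and Ccnd3, the kinase Cdk4, cyclin E1 (Ccne1), and the cyclin-dependent kinase inhibitors Cdkn1a (p21) and Cdkn1b (p27). They were chosen by gene symbol, and every probe set that the platform annotation gives to 1 of these symbols was taken. This gave 17 probe sets of the 8740 tested, which stand for 7 of 4736 named genes: 5 for Ccnd1, 4 for Ccnd3, 2 each for Ccnd2, Ccne1 and Cdkn1a, and 1 each for Cdk4 and Cdkn1b. The rule used symbols and no measured value, but the genes were chosen with earlier results of these data known.

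The study followed 2 rat thyroid cell lines, unstimulated (basal) and after 30 min or 17 h of bovine thyrotropin (TSH). FRT/TSHR cells, labelled as de-differentiated thyrocytes and named for the TSH receptor, were kept on Coon's modified Ham's F12 and given 1 U/L of TSH. FRTL5 cells, labelled as differentiated thyrocytes, were kept for 5 days in a medium without TSH (5H) and given 0.1 U/L of TSH. All 6 groups, the basal ones included, passed 12 h without serum before the stimulation, and each group has 3 arrays. Line and medium change together, and at 30 min and 17 h the TSH dose changes with them. They cannot be told apart in any comparison of the lines, and each line has a single basal group for both times. The arrays measured RNA of whole cultures, in which more cells in a cycle phase and more transcript per cell cannot be told apart.

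In quiescent cells, mitogens raise the D cyclins, which bind Cdk4 and start the phosphorylation of the retinoblastoma protein. Cyclin E then binds Cdk2, E2F factors are released, and the genes of DNA replication are transcribed, while p27 and p21 restrain the cyclin E and Cdk2 complexes and also bind the cyclin D complexes. TSH acts through cyclic AMP and is itself a mitogen for thyroid follicular cells, and in cultured dog thyrocytes it has been described to act through cyclin D3 and Cdk4. Much of the control of these genes is on the protein (assembly, phosphorylation and degradation), which arrays of RNA do not see.

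The values are log2 signals after robust multi-array averaging (RMA), whose array medians ran between 5.47 and 5.59. Arrays of a cell line group together on the first principal component, which held 69.8% of the variance. On the 3 FRTL5 arrays numbered 1, actin's 3′ probe set exceeded its 5′ probe set by 1.13 to 1.22 on the log2 scale, against -0.14 to 0.28 on the other 15 arrays, a sign of RNA quality that moves with the array number. Of 6 measured markers of thyroid follicular cells, 4 were lower in basal FRT/TSHR than in basal FRTL5 cells. Among them thyroglobulin averaged 4.17 in basal FRT/TSHR and 11.21 in basal FRTL5 cells, and the signals of the 6 markers summed to 685 to 789 in basal FRT/TSHR cells and 2596 to 5188 in basal FRTL5 cells on the linear scale. The Tshr probe set averaged 6.60 in basal FRT/TSHR and 6.56 in basal FRTL5 cells (adjusted p = 0.912). Of 8 fibroblast markers only Fn1 was higher in basal FRT/TSHR cells (log2 difference 2.29), and of 3 measured C cell markers Ret was lower. None of 2 leukocyte and 3 endothelial markers passed. The part of these marker shifts in the results below was not tested. Without the FRTL5 arrays numbered 1, 8, 5 and 5 member probe sets passed between the lines at basal, 30 min and 17 h, against 8, 6 and 5 with them. At 17 h the equal count hides an exchange: D16308_at of Ccnd2 passed (-0.60, adjusted p = 0.0408) and U49935mRNA_s_at of Ccnd3 did not (0.41, adjusted p = 0.0722).

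**Figure D1:**
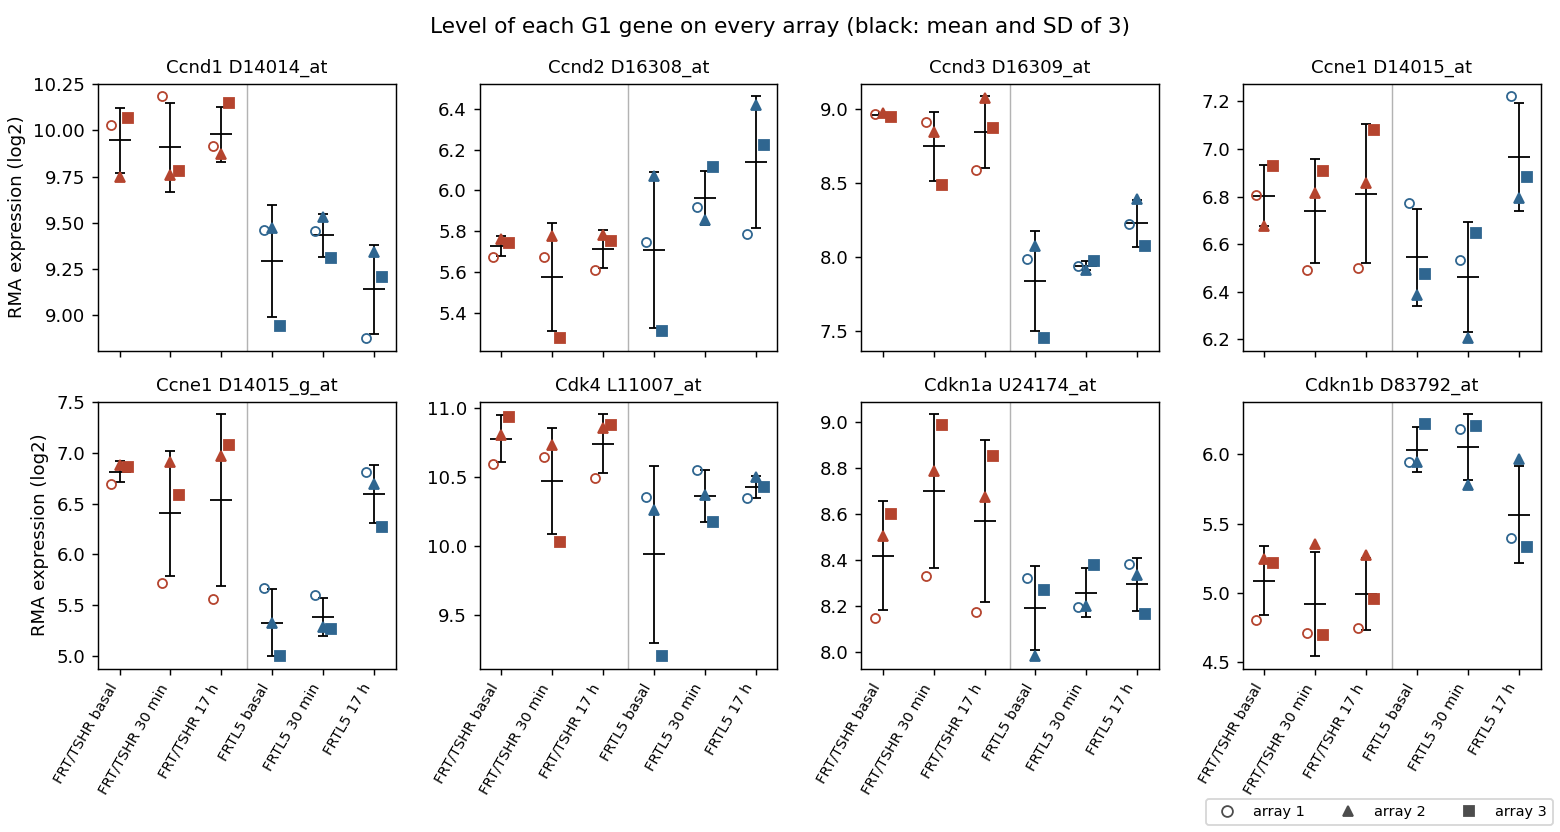
Log2 RMA signal on every array of the leading probe set of each of the 7 genes, and of D14015_g_at of Ccne1 (circles, triangles and squares for arrays numbered 1, 2 and 3, with the group mean and SD in black), for FRT/TSHR and FRTL5 cells at basal, 30 min and 17 h of TSH (3 arrays a group). Ccnd1 and Ccnd3 lie higher in FRT/TSHR than in FRTL5 at each time, Cdkn1b lies lower, and the Cdkn1a arrays of the lines overlap at each time.

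All members that passed the test without a replicate block did so between the lines. In basal FRT/TSHR cells Ccnd1, Ccnd3, Ccne1 and Cdk4 were higher than in basal FRTL5 cells, and Cdkn1b was lower. Of the 17 probe sets, 7 were higher at an adjusted p under 0.05, where 13.3% of all probe sets were, and 1 was lower, where 12.2% were. The 7 belong to 4 genes, and probe sets of 1 gene are not independent. Over the 17 probe sets the median log2 difference was 0.32, against -0.04 over all 8740. The adjusted p-values are limma's moderated test with Benjamini-Hochberg adjustment over all 8740 probe sets, and errors on differences are standard errors.

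Cyclin D3, a D-type cyclin that is prominent in many differentiated tissues, differed most evenly. Its leading probe set, D16309_at, read 8.97, 8.97 and 8.95 on the basal FRT/TSHR arrays, and 7.98, 8.07 and 7.45 on the basal FRTL5 arrays. Every FRT/TSHR array lay above every FRTL5 array, and the FRT/TSHR arrays were nearly alike. The log2 difference was 1.13 ± 0.16, or 2.18-fold (adjusted p = 5.5e-05). D16309_g_at, named for the same sequence record, differed by 1.22 ± 0.18 (adjusted p = 7.07e-05) and U49935mRNA_s_at by 0.70 ± 0.17 (adjusted p = 0.0046). The fourth probe set, U49935mRNA_r_at, went the other way by -0.29 without passing (adjusted p = 0.613). It correlated with the leading one at -0.20 over the 18 arrays, where D16309_g_at reached 0.96 and U49935mRNA_s_at 0.83. It was lowest on the arrays numbered 1 of every group. These read 6.68 at basal, 6.79 at 30 min and 6.59 at 17 h in FRTL5 cells, and 6.85, 6.97 and 7.06 in FRT/TSHR cells.

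The cyclin D3 difference was also present under TSH. At 30 min D16309_at read 8.91, 8.85 and 8.48 on FRT/TSHR arrays, against 7.94, 7.91 and 7.97 on FRTL5 arrays, with no overlap and a log2 difference of 0.81 (adjusted p = 0.00132). At 17 h it read 8.59, 9.07 and 8.87 on FRT/TSHR arrays, against 8.22, 8.39 and 8.07 on FRTL5 arrays, again without overlap, and the difference was 0.62 (adjusted p = 0.0109). The other 2 probe sets that passed at basal passed at both times, D16309_g_at by 0.66 and 0.53 (adjusted p = 0.0127 and 0.0496) and U49935mRNA_s_at by 0.71 and 0.59 (adjusted p = 0.00435 and 0.0172). These calls were close to the threshold at 17 h, and single arrays decided them. D16309_at lost its call without FRTL5 replicate 3 or FRT/TSHR replicate 2 (adjusted p = 0.0554 and 0.0599), and also under quantile normalization (0.42, adjusted p = 0.0852). D16309_g_at lost it without any single array of the groups except FRT/TSHR replicate 1 (adjusted p = 0.0733 to 0.154), and under quantile normalization the difference was 0.35 (adjusted p = 0.224). U49935mRNA_s_at lost it without FRTL5 replicate 1 or FRT/TSHR replicate 2 or 3 (adjusted p = 0.0966, 0.081 and 0.0532). At 30 min D16309_g_at lost its call without FRTL5 replicate 2 or FRT/TSHR replicate 1 (adjusted p = 0.0568 and 0.0769). In the order of the 6 group means of D16309_at, the FRT/TSHR groups stood above the FRTL5 groups, and the only neighbours that differed were FRT/TSHR at 30 min and FRTL5 at 17 h (adjusted p = 0.0328).

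Cyclin D1, the D cyclin most often linked to growth factor and Ras signalling, was higher in basal FRT/TSHR cells by its leading probe set. D14014_at read 10.03, 9.74 and 10.06 on basal FRT/TSHR arrays, and 9.46, 9.47 and 8.94 on basal FRTL5 arrays. The lines did not overlap, and the log2 difference was 0.66 ± 0.17, or 1.58-fold (adjusted p = 0.00741). D14014_g_at, of the same record, gave 0.71 ± 0.16 (adjusted p = 0.00257) and followed the leading probe set across the 18 arrays (r = 0.97). The other 3 Ccnd1 probe sets did not pass, with log2 differences of 0.32 ± 0.30, -0.06 and -0.05 for X75207_s_at, rc_AA957218_at and rc_AI231257_at. X75207_s_at, with signals of the same size as the leading one, moved with the array number in FRT/TSHR cells: 8.99, 9.63 and 9.98 at basal, 8.92, 9.29 and 9.75 at 30 min, and 8.64, 9.27 and 9.95 at 17 h for the arrays numbered 1, 2 and 3. In FRTL5 cells the array numbered 1 was also the lowest of its group, at 8.99 at basal, 8.96 at 30 min and 8.84 at 17 h. The last pair of probe sets read lower throughout, with means over the 18 arrays of 6.58 and 5.50, against 9.62 for D14014_at.

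At 17 h of TSH D14014_at read 9.91, 9.87 and 10.15 on FRT/TSHR arrays, and 8.87, 9.34 and 9.21 on FRTL5 arrays. Again no array of a line overlapped those of the other, and the log2 difference was 0.84 (adjusted p = 0.00147), with 0.82 for D14014_g_at (adjusted p = 0.00107). At 30 min D14014_at differed by 0.48 and stood just outside the threshold (adjusted p = 0.051), while D14014_g_at differed by 0.52 (adjusted p = 0.0238). That call was lost without FRTL5 replicate 2 or 3 (adjusted p = 0.0538 and 0.0863), without FRT/TSHR replicate 1 (0.117) and without all arrays numbered 1 (0.0623). Over the 6 groups D14014_at was highest in FRT/TSHR at 17 h and lowest in FRTL5 at 17 h, a range of 0.84, and no neighbours in that order differed.

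Cyclin D2, the remaining D cyclin, did not pass between the lines at any time. D16308_at read 5.67, 5.76 and 5.74 in basal FRT/TSHR cells, and 5.75, 6.07 and 5.31 in basal FRTL5 cells, so that the FRT/TSHR arrays lay within the FRTL5 range. The log2 difference was 0.02 at basal, -0.39 at 30 min (adjusted p = 0.17) and -0.43 at 17 h (adjusted p = 0.131). The second probe set, rc_AA899106_at, differed by -0.27, -0.34 and -0.26 (adjusted p = 0.144, 0.0586 and 0.165). With an array left out, D16308_at was lower in FRT/TSHR at 17 h without FRTL5 replicate 1 (-0.60, adjusted p = 0.0323), and rc_AA899106_at at 30 min without FRTL5 replicate 2 (-0.44, adjusted p = 0.0254). Nothing in the labels links a replicate number across the lines. With the number shared by both lines as a block, rc_AA899106_at passed at basal and 30 min (adjusted p = 0.0426 and 0.0114), and D16308_at did not pass. The signals of both lay near or under the array medians, and the probe sets hardly followed each other (r = 0.13 over 18 arrays).

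Cdk4, the kinase that the D cyclins activate, read 10.59, 10.80 and 10.93 in basal FRT/TSHR cells, and 10.36, 10.26 and 9.20 in basal FRTL5 cells. The lines did not overlap, but 1 FRTL5 array stood well under the other two. The log2 difference was 0.84 ± 0.25, or 1.79-fold (adjusted p = 0.0199). Without that array, FRTL5 basal replicate 3, it was 0.47 (adjusted p = 0.102), and the call was also lost without FRT/TSHR basal replicate 2 (0.82, adjusted p = 0.0548) or replicate 3 (0.76, adjusted p = 0.0751). Quantile normalization (0.66, adjusted p = 0.0694) and a fit on only the groups compared (adjusted p = 0.0871) lost it too. Under TSH the lines differed by 0.11 at 30 min (adjusted p = 0.878) and 0.32 at 17 h (adjusted p = 0.464), neither past the threshold.

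Cyclin E1, which activates Cdk2 at the start of S phase, was measured by a pair of probe sets of 1 record that disagreed in size. D14015_g_at read 6.69, 6.88 and 6.86 in basal FRT/TSHR cells, and 5.67, 5.32 and 5.00 in basal FRTL5 cells. All FRT/TSHR arrays were higher than all FRTL5 arrays, by 1.48 ± 0.34 or 2.79-fold (adjusted p = 0.0038). The leading probe set, D14015_at, read 6.81, 6.67 and 6.93 in basal FRT/TSHR cells, and 6.78, 6.38 and 6.47 in basal FRTL5 cells, which overlap, and differed by 0.26 ± 0.17 (adjusted p = 0.34). The pair correlated at 0.80 over the 18 arrays. At 30 min D14015_g_at was higher in FRT/TSHR by 1.02 (adjusted p = 0.0433). Leaving out any single array of those 2 groups except FRT/TSHR replicate 1 ended that call, with adjusted p-values of 0.0547, 0.117 and 0.118 without FRTL5 replicates 1, 2 and 3, and 0.198 and 0.13 without FRT/TSHR replicates 2 and 3. At 17 h it did not differ past the threshold (-0.06, adjusted p = 0.942), although without the 3 arrays numbered 1 of each line it was higher in FRT/TSHR by 0.54 (adjusted p = 0.0431). At 17 h the FRT/TSHR array numbered 1 read 5.56, and the others 6.97 and 7.08.

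Cdkn1b, which encodes p27, a brake on cyclin E and Cdk2 that is typically high in resting cells, was the one member lower in FRT/TSHR. D83792_at read 4.80, 5.25 and 5.21 in basal FRT/TSHR cells, and 5.94, 5.94 and 6.22 in basal FRTL5 cells. The lines did not overlap, and the log2 difference was -0.95 ± 0.21, or 1.93-fold lower (adjusted p = 0.00296). At 30 min the arrays read 4.71, 5.36 and 4.70 in FRT/TSHR cells, and 6.18, 5.78 and 6.21 in FRTL5 cells, and the difference was -1.13 (adjusted p = 0.000735). At 17 h they read 4.75, 5.27 and 4.96 in FRT/TSHR cells, and 5.40, 5.97 and 5.33 in FRTL5 cells, without overlap, and the difference of -0.57 did not pass (adjusted p = 0.0712), but did without FRT/TSHR replicate 2 (-0.71, adjusted p = 0.0443). With the replicate number shared by both lines as a block, which the labels do not link across the lines, the 17 h difference passed too (adjusted p = 0.04). The FRT/TSHR values lie under the array medians, and there is no second probe set.

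Cdkn1a encodes p21, the inhibitor that p53 induces. U24174_at read 8.15, 8.51 and 8.60 in basal FRT/TSHR cells, and 8.32, 7.98 and 8.27 in basal FRTL5 cells, with overlap and a log2 difference of 0.23 (adjusted p = 0.459). L41275cds_s_at read 7.10, 7.82 and 7.90 in basal FRT/TSHR cells, and 6.43, 6.95 and 6.82 in basal FRTL5 cells, without overlap, by 0.88 ± 0.40 (adjusted p = 0.137). At 30 min the pair differed by 0.44 (adjusted p = 0.111) and 1.14 (adjusted p = 0.053), and at 17 h by 0.27 (adjusted p = 0.377) and 0.79 (adjusted p = 0.21). Leaving out FRT/TSHR replicate 1 brought both past the threshold at 30 min (0.63 and 1.38, adjusted p = 0.0251 and 0.0381), and leaving out FRTL5 replicate 3 did so for L41275cds_s_at (1.47, adjusted p = 0.0212). FRT/TSHR arrays numbered 1 were the lowest of their groups on both probe sets at every time, and without all 6 arrays numbered 1 both passed at 30 min, U24174_at by 0.60 (adjusted p = 0.0102) and L41275cds_s_at by 1.21 (adjusted p = 0.00413). In that setting L41275cds_s_at also passed at basal (0.98, adjusted p = 0.0139) and U24174_at at 17 h (0.51, adjusted p = 0.0264). With the replicate number shared by both lines as a block, L41275cds_s_at passed at basal, 30 min and 17 h (adjusted p = 0.00562, 0.000878 and 0.0138). U24174_at passed at none of these times with the block.

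**Figure D2:**
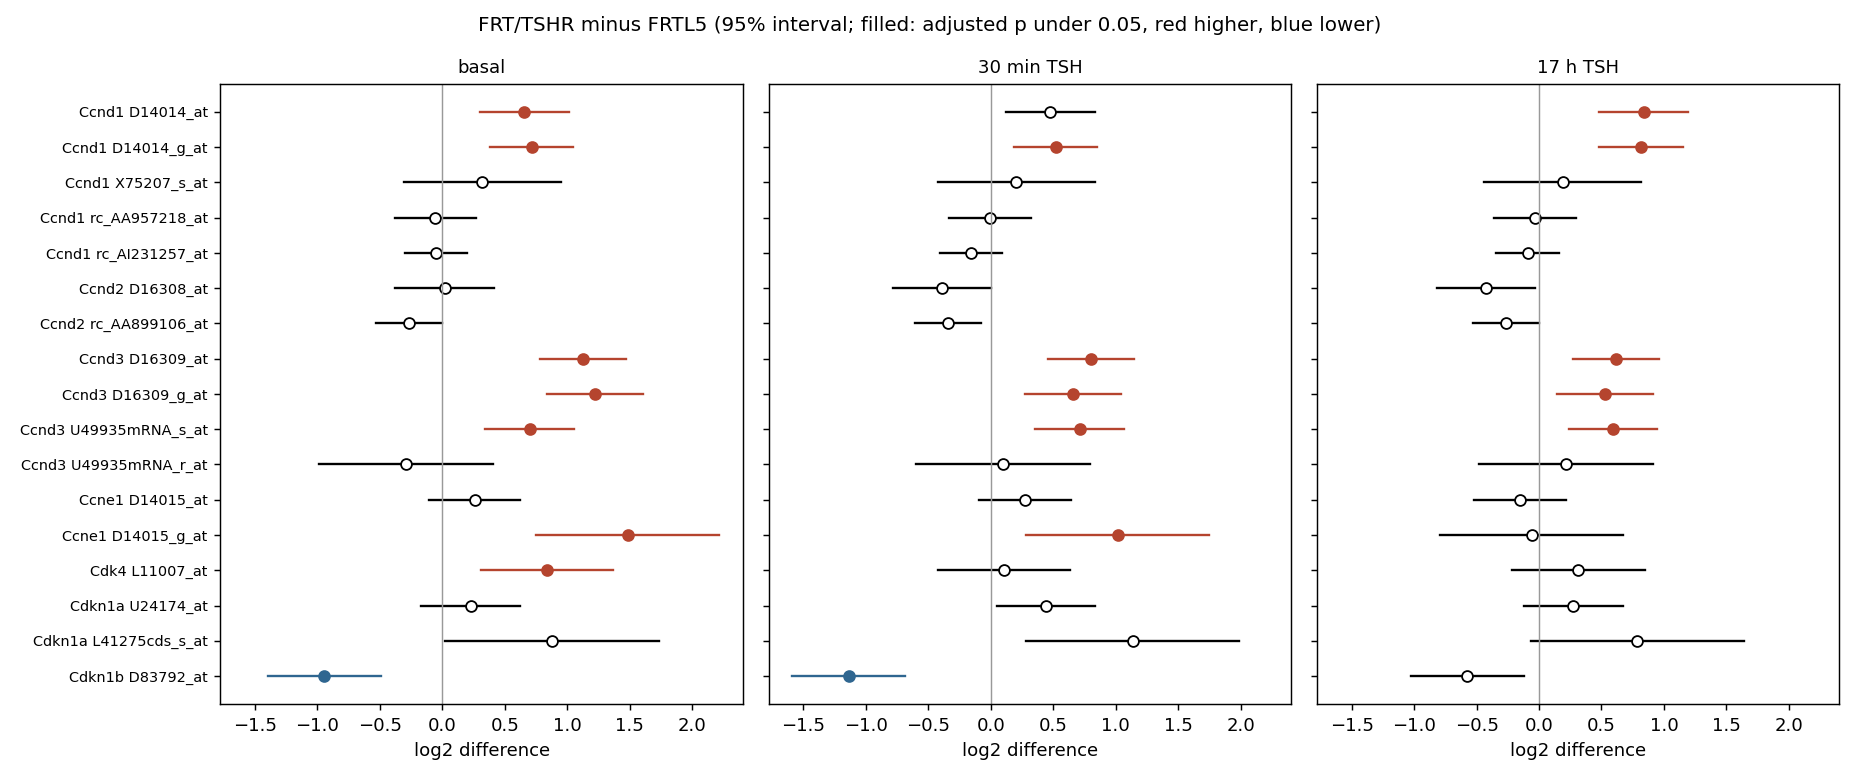
Log2 difference of FRT/TSHR minus FRTL5 for the 17 probe sets at basal, 30 min and 17 h, with 95% confidence intervals and filled points for an adjusted p under 0.05. Of 17, 7 are higher and 1 lower at basal, 5 higher and 1 lower at 30 min, and 5 higher and none lower at 17 h.

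Counted by time, 5 probe sets were higher and 1 was lower at 30 min of TSH, where 11.3% and 11.4% of all probe sets were. At 17 h 5 were higher, where 11.5% were, and none was lower, where 8.94% were. At 17 h those 5 were 2 Ccnd1 and 3 Ccnd3 probe sets. The leading probe sets of Ccnd1 and Ccnd3 were higher in every FRT/TSHR array than in every FRTL5 array at each of the 3 times, and Cdkn1b was lower in every one. Such separation was common: 8, 6 and 5 member probe sets were wholly higher at basal, 30 min and 17 h, where 17.5%, 16.5% and 15.5% of all probe sets were, and 1, 3 and 3 were wholly lower, where 19.5%, 16.5% and 17.6% were.

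Promoter sequences were found in RefSeq's GRCr8 annotation for 5 of the 7 genes: Ccnd3, Ccne1, Cdk4, Cdkn1a and Cdkn1b. The 250 bases before the start are shown for the 4 of them with a probe set that passed between the lines, 5′ to 3′ on the strand of the gene. Capitals mark every match to the searched motifs: the cyclic AMP response element core TGACG, the Sp1 motif GGGCGG and the E-box CACGTG, each on both strands. Ccnd3 is at chr9:20897876-20898125 on the minus strand, Ccne1 at chr1:99927910-99928159 on the minus strand, Cdk4 at chr7:64771203-64771452 on the plus strand, and Cdkn1b at chr4:169491254-169491503 on the plus strand.
Ccnd3: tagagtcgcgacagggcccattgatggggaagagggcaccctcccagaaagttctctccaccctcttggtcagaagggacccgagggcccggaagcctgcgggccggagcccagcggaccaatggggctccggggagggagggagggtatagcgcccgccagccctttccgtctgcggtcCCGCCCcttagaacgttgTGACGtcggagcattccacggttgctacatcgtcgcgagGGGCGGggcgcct
Ccne1: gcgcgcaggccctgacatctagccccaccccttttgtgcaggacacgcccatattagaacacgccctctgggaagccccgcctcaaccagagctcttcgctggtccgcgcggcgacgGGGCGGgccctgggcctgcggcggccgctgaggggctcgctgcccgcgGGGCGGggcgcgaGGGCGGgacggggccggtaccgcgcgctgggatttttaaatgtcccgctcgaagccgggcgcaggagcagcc
Cdk4: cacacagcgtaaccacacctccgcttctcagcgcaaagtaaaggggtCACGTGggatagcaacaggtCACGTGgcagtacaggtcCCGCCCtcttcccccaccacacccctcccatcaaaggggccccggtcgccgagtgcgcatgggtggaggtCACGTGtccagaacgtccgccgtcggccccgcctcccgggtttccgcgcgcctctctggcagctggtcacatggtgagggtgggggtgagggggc
Cdkn1b: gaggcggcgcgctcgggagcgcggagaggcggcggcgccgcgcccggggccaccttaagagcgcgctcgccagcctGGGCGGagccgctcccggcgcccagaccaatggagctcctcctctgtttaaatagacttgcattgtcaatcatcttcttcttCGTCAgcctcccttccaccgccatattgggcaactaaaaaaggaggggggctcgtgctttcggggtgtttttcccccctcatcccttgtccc

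The TGACG core, which is contained in the full cyclic AMP response element TGACGTCA, is present in 18.2% of the 33469 promoters of that annotation, counted over the same 250 bases. Ccnd3 holds it once, 52 bases before the start, Cdkn1b once on the other strand, 92 bases before, and Cdkn1a once on the other strand, 243 bases before, and none of the 5 holds the full element, which 1.59% of promoters do. GGGCGG, on either strand, is present in 30.5% of promoters. Ccne1 holds it 3 times, at 133, 85 and 72 bases before the start, Ccnd3 2 times, at 70 and 13, Cdk4 once, at 165, and Cdkn1b once, at 174. Cdk4 holds CACGTG 3 times, at 203, 183 and 95 bases before its start. That motif is in 5.59% of promoters, and 0.0508% of them hold 3 or more matches. It was added after the sequence had been seen. No E2F motif (TTTCCCGC, TTTCGCGC, TTTGCCGC or TTTGGCGC, in 1.73% of promoters) and no AP-1 motif (TGACTCA or TGAGTCA, in 4.05%) was found in the 5 windows, which says only that these letters are not there.

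In the fit without a replicate block, no member passed the test for an effect of TSH. After 30 min of TSH the count was 0 of 17 probe sets in each line, where 0% of all probe sets passed in FRT/TSHR and 0.24% in FRTL5. None had an unadjusted p under 0.05 in either line, where 2.38% of all probe sets had one in FRT/TSHR and 2.76% in FRTL5. After 17 h of TSH against basal, 0 of 17 passed in FRT/TSHR, where 0% of all probe sets did, and 0 in FRTL5, where 3.56% did. In FRT/TSHR at 17 h none of the 17 had an unadjusted p under 0.05, where 1.24% of all probe sets did, and in FRTL5 6 of the 17 had one, where 12.7% did. At 17 h against 30 min none passed in FRT/TSHR, where 0% of all probe sets did, or in FRTL5, where 4.21% did. An unadjusted p under 0.05 was found there for 0 of 17 in FRT/TSHR, where 2.05% of all probe sets had one, and for 3 of 17 in FRTL5, where 13.1% did. None passed for a difference between the lines in the effect of 30 min or of 17 h, where 0.0343% and 0.789% did. With the replicate number within each line as a block, 3 probe sets passed limma's test at 17 h against basal in FRTL5. They were both Ccne1 probe sets and D16309_g_at of Ccnd3. Arrays of a number correlated within each line, but a shift of the arrays numbered 1 alone could also give such correlations. The block called 9.92% of all probe sets in that comparison, 10.5% at 17 h against 30 min, where both Ccne1 probe sets passed, and 4.18% for the line difference of the 17 h effect, where D14015_g_at of Ccne1 did.

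Cyclin E1 had the largest measured difference after TSH. In FRT/TSHR cells the D14015_g_at arrays read 6.69, 6.88 and 6.86 at basal, 5.72, 6.91 and 6.59 at 30 min, and 5.56, 6.97 and 7.08 at 17 h, and the difference of 17 h over basal was -0.28 ± 0.34 with overlap. In FRTL5 cells D14015_g_at read 5.67, 5.32 and 5.00 at basal, 5.60, 5.28 and 5.27 at 30 min, and 6.81, 6.70 and 6.27 at 17 h. The 17 h arrays did not overlap the basal ones, and each was higher than the basal array of its number. The log2 difference of 17 h over basal was 1.26 ± 0.34, or 2.40-fold (adjusted p = 0.058), and with the block its adjusted p was 0.00123. It also passed with only the groups compared (adjusted p = 0.0496), under quantile normalization (0.0449) and among probe sets above the median signal (0.0376). Without all arrays numbered 1 it passed as well (0.00193). It did not pass under median centring, with a variance trend, without the FRTL5 arrays numbered 1 or without any single array. D14015_at read 6.78, 6.38 and 6.47 at basal, 6.54, 6.20 and 6.65 at 30 min, and 7.22, 6.80 and 6.88 at 17 h. Its difference of 0.42 (adjusted p = 0.279, and 0.0318 with the block) was in the same direction, and the 17 h arrays again lay above all basal ones. Against 30 min, D14015_g_at differed by 1.21 (adjusted p = 0.0646, and 0.00135 with the block) and D14015_at by 0.50 (adjusted p = 0.14, and 0.0112 with the block). The 17 h effect differed between the lines by -1.54 ± 0.49 (adjusted p = 0.218, and 0.00843 with the block).

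For cyclin D3 in FRT/TSHR cells the difference of 17 h over basal was -0.12 ± 0.16 for D16309_at and -0.10 ± 0.18 for D16309_g_at. In FRTL5 cells both were higher at 17 h than at basal on average. D16309_g_at read 7.84, 7.51 and 7.17 at basal, 7.94, 7.61 and 7.67 at 30 min, and 8.18, 8.13 and 7.98 at 17 h. Every 17 h array lay above every basal array, by 0.60 (adjusted p = 0.0934, and 0.026 with the block), and D16309_at by 0.39 (adjusted p = 0.285, and 0.112 with the block), with overlap for D16309_at. Without FRTL5 basal replicate 1, D16309_g_at passed (0.76, adjusted p = 0.0364). The difference for U49935mRNA_s_at was 0.13, and that for U49935mRNA_r_at was -0.39 (adjusted p = 0.75). The difference of the 17 h effect between the lines was -0.51 and -0.70 for these probe sets, and neither passed (adjusted p = 0.545 and 0.356).

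The remaining members did not pass at 17 h in FRTL5 with or without the block. Cdkn1b read 5.94, 5.94 and 6.22 at basal, 6.18, 5.78 and 6.21 at 30 min, and 5.40, 5.97 and 5.33 at 17 h. At 17 h the arrays numbered 1 and 3 lay under all basal ones and the array numbered 2 among them, and the difference was -0.47 ± 0.21 (adjusted p = 0.364, and 0.118 with the block). Cdk4 differed by 0.49 (adjusted p = 0.47), and by 0.12 without FRTL5 basal replicate 3, which read 9.20. Ccnd2 differed by 0.43 on D16308_at (adjusted p = 0.324, and 0.158 with the block) and by -0.10 on its second probe set. Ccnd1 differed by -0.15 on its leading probe set, and Cdkn1a by 0.10 and 0.39 on its pair. In FRT/TSHR cells the 17 differences at 17 h lay between -0.28 and 0.30, and their 95% intervals all held 0.

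**Figure D3:**
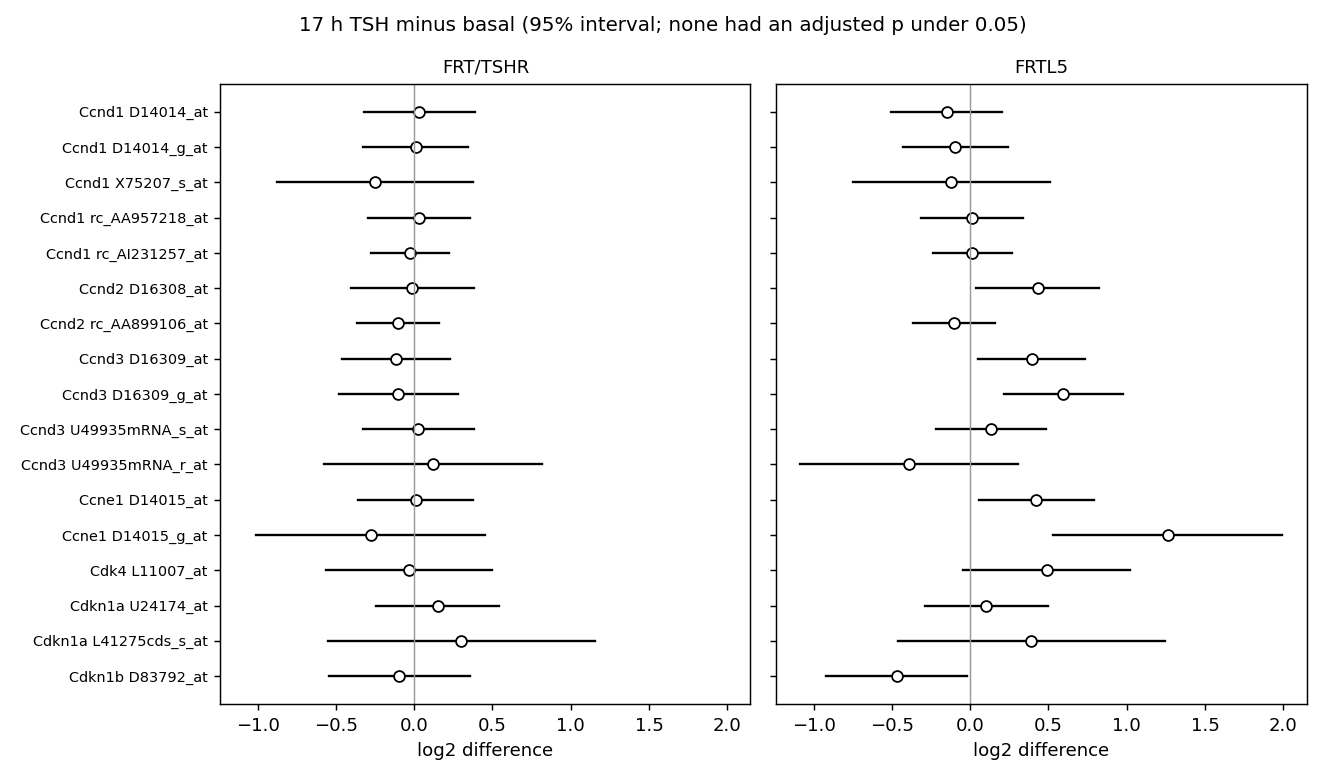
Log2 difference of 17 h TSH minus basal for the 17 probe sets in FRT/TSHR (left) and FRTL5 cells (right), with 95% confidence intervals. D14015_g_at of Ccne1 stands highest in FRTL5, at 1.26, and no probe set passed an adjusted p of 0.05 in either line without the replicate block, with which 3 passed in FRTL5.

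Groups of arrays that do not overlap were counted too. At 17 h against basal in FRTL5, 3 of 17 probe sets were wholly higher, where 7.6% of all probe sets were, and none was wholly lower, where 7.78% were. At 17 h against 30 min, 4 were wholly higher, where 8.52% were, and 1 was wholly lower, where 8.57% were. The higher ones were the pair for Ccne1 and, for Ccnd3, D16309_g_at in both comparisons and D16309_at against 30 min. The lower one was D14014_g_at of Ccnd1, by -0.25.

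Genes that lie below cyclin E, most of them of DNA replication, were measured in the same contrasts. The list of S phase genes used also holds Cdk1, Ccnb1 and Top2a, which have roles in mitosis. Of 15 measured genes on a list of 25 S phase genes regulated by E2F, 10 were higher in FRTL5 at 17 h of TSH than at basal and none lower, with a median log2 difference of 1.01, against 0.01 over the leading probe sets of all genes, of which 1.86% were higher. Examples were Tyms, thymidylate synthase (0.94 ± 0.14), Prim1, a DNA primase subunit (1.07 ± 0.19), and Cdk1, the mitotic kinase (1.26 ± 0.26). Without the FRTL5 arrays numbered 1 the count was 7, and with the block 13. In FRT/TSHR at 17 h against basal none of the 15 passed, where 0% of genes did, and the median was -0.38, or -0.01 without all arrays numbered 1. At basal, 11 of the 15 were higher in FRT/TSHR than in FRTL5, with a median of 1.11, where 14.8% of genes were higher, and without the FRTL5 arrays numbered 1 the count was 9. Among the 11 were Pcna, the sliding clamp of DNA replication (1.90 ± 0.41), Mcm5, a helicase subunit (1.93 ± 0.38), and Cdk1 (1.89 ± 0.26). At 17 h of TSH, 5 of the 15 were lower in FRT/TSHR than in FRTL5, where 10.3% of genes were, and none was higher, where 12.8% were. The genes were Tyms, Pold1, Pola1, Top2a and Prim2, and the median was -0.31. Without all arrays numbered 1 the sign of the median turned, to 0.11, with 4 genes lower and 1 higher. The list was drawn up with earlier results of these arrays known and is no independent evidence.

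**Figure D4:**
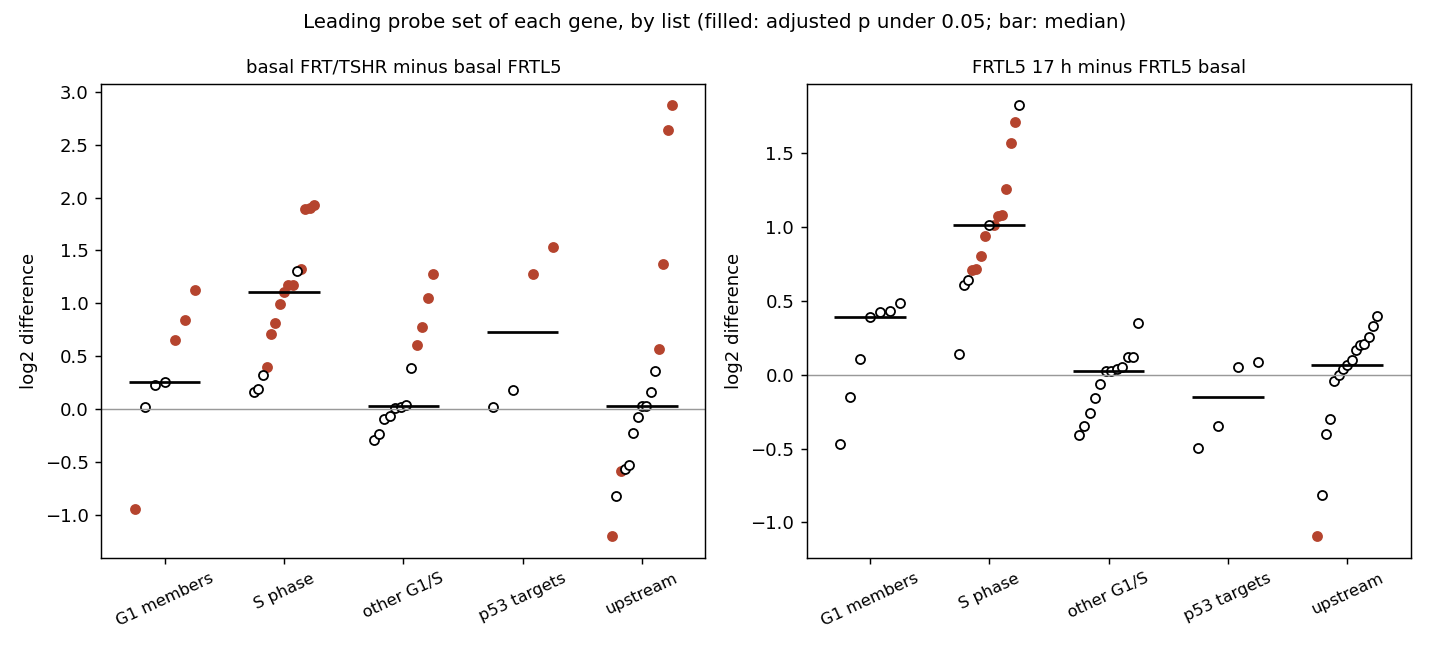
Log2 differences of the leading probe set of each gene, with a bar at each list's median: basal FRT/TSHR minus basal FRTL5 (left) and FRTL5 17 h minus basal (right). The S phase genes lie above 0 in both panels, with medians of 1.11 and 1.01, whereas the 7 members spread on both sides.

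Of 12 other measured genes of the G1 to S transition (32 listed, members left out), 4 were higher in basal FRT/TSHR than in basal FRTL5 and none was lower: Ccng1 (1.27), Cdk5 (1.05), E2f5 (0.77) and Cdkn2b, the p15 inhibitor (0.61). In that comparison 14.8% of all genes were higher and 13.8% lower. None passed in FRTL5 at 17 h of TSH. Of 4 measured p53 genes (15 listed), Mdm2, which targets p53 for degradation, was higher in basal FRT/TSHR by 1.54, as was Ccng1, which is on both lists. Gadd45a (0.18, adjusted p = 0.778) and Fas (0.02, adjusted p = 0.941) did not pass, and the share of all genes higher was again 14.8%. Of 15 measured regulators upstream of the D cyclins and p27 (23 listed), 4 were higher in basal FRT/TSHR and 2 were lower, against the same shares of 14.8% and 13.8%. Myc, a growth-promoting transcription factor, was higher by 2.64 ± 0.24, Fosl1, an AP-1 component, by 2.87 ± 0.42, Map2k1, a kinase above ERK, by 1.37 ± 0.21, and Akt1 by 0.57 ± 0.19. Igf1r, the IGF-1 receptor, was lower by 1.21 and Btg1, an antiproliferative gene, by 0.59.

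In FRTL5 cells genes of the upstream list passed at 30 min of TSH, when no member did. At that time Egr1, Fos and Myc, each an immediate early transcription factor, were higher than at basal by 3.91 ± 0.58, 2.45 ± 0.46 and 1.39 ± 0.24 (adjusted p = 0.00436, 0.0352 and 0.0167), 3 of 15 where 0.169% of genes were. Of these 3 in FRT/TSHR, none passed, with Egr1 at 1.47 ± 0.58, and the line difference of the 30 min effect did not pass for any of the 3 (adjusted p = 1). At 17 h Btg1 was lower than at basal in FRTL5 by 1.10 ± 0.13 (adjusted p = 0.000375), and no other gene of the list passed.

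The genes whose log2 values followed each member's leading probe set most closely were found by Pearson's r over all 18 arrays, as a description. As the lines differ, r over the 18 arrays includes their difference. Ccnd1 was followed by Slfn2 (0.94), Ptgs1 (0.94) and Hspb1 (0.93), and Ccnd3 by Mgst3 (0.96), Parp1 (0.96) and Aqp9 (0.95). Ccne1 was followed by Mcm6 (0.84), Psmd1 (0.84) and Arl6ip6 (0.83), and Cdk4 by Cox6a1 (0.90), Ssrp1 (0.88) and Rab10 (0.87). Cdkn1b was followed by Camkk1 (0.97), Sparc (0.96) and Irf3 (0.94), Cdkn1a by Slc6a6 (0.85) and Cx3cl1 (0.85), and Ccnd2 by Trappc3 (0.85). Over the 9 FRTL5 arrays alone, none of these genes was among the 3 closest to its member. Ccne1 was followed there by Fgd4 (0.95), Il9r (0.95) and Col1a1 (0.94).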

How the data were processed

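Total RNA (10 µg) for each of the 18 samples was labelled and hybridised to rat arrays, per the labels' protocols. The authors deposited 1 log2 value per probe set and array, made by RMA, per the submitters' processing notes; the settings are not given in the sources used here. Replicates carry numbers, and nothing says that they are separate cultures, so p-values measure the spread between these arrays, which may be technical. No 2 arrays held the same values.

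Of 8799 probe sets, 59 controls were left out. Of the 8740 tested, 7006 have 1 gene symbol in the platform annotation, 308 several and 1426 none. A gene's leading probe set was the one with the highest mean over all arrays. limma 3.58.1 in R 4.3.3 fitted the 6 group means (12 residual and 3.60 prior degrees of freedom) and gave 11 comparisons, each adjusted by Benjamini-Hochberg over 8740 probe sets at 0.05.

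Arrays of a replicate number correlated within a line (correlation of deviations 0.158 to 0.619 in FRT/TSHR and 0.148 to 0.798 in FRTL5). In FRTL5 the values were 0.690 to 0.798 for number 1 and 0.148 to 0.474 for the others. Deviations from a group mean cancel, so a shift of the arrays numbered 1 alone also gives positive correlations for the others. Pairing by number and such a shift were not told apart. Between lines the correlations were less even (-0.12 to 0.40), and those of the arrays numbered 1 were 0.32 to 0.35. The members and the gene lists were chosen with earlier results of these data known. For each list, genes with an adjusted p under 0.05 were named first, up to 6. Alternatives were a replicate block, fits on the groups compared, quantile normalization, median centring, a signal filter, a variance trend and leaving out arrays. The block was the number within each line, but for comparisons of the lines it was the number shared by both lines. Nothing in the labels links a number across the lines. The fit without a block was tested on simulated data for 17 h against basal in FRTL5.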

Additional observations from a re-analysis of the deposited data

Results flagged for a closer look

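The effect of 17 h of TSH differed between the lines for 5 genes of the lists, where 0.866% of all genes did. The test was limma's, of the difference itself (the effect in FRT/TSHR minus that in FRTL5). Among the 5, Btg1 is 1 of 15 measured upstream regulators. None of 12 other G1/S genes and 4 p53 genes passed. The other 4 are among 15 measured genes of the S phase list, with Cdk1 and Top2a having roles in mitosis. None of the 4 passed in FRT/TSHR, where 17 h minus basal was -0.53 (Cdk1), -0.35 (Prim1), -0.42 (Top2a) and -0.27 (Tyms). All passed in FRTL5, where it was 1.26 (Cdk1), 1.07 (Prim1), 1.08 (Top2a) and 0.94 (Tyms). The differences were -1.79 ± 0.36 for Cdk1 (adjusted p = 0.0306), -1.42 ± 0.27 for Prim1 (adjusted p = 0.0233), -1.50 ± 0.33 for Top2a (adjusted p = 0.0473) and -1.21 ± 0.20 for Tyms (adjusted p = 0.0111). For Btg1 it was 0.04 in FRT/TSHR, where it did not pass, and -1.10 in FRTL5, a difference of 1.13 ± 0.19 (adjusted p = 0.0111). Without the 3 FRTL5 arrays numbered 1 the differences were -1.81 (Cdk1), -1.42 (Prim1), -1.47 (Top2a), -1.29 (Tyms) and 1.01 (Btg1), and Tyms (adjusted p = 0.0127) and Btg1 (0.0276) passed, with Cdk1 at 0.05. Without all 6 arrays numbered 1 they were -1.36 (Cdk1), -1.08 (Prim1), -0.999 (Top2a), -1.10 (Tyms) and 0.94 (Btg1), and only Tyms passed (adjusted p = 0.0445). With the replicate number within each line as a block, all 5 passed limma's test (adjusted p = 0.00196 to 0.0207). That block called 4.18% of all probe sets.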

How the results depend on the processing

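Of 2738 member differences under the alternatives, 1 changed sign past the threshold, D14015_g_at of Ccne1 between the lines at 17 h, at 0.54 without all arrays numbered 1, and 251 changed sign with neither value past it. The replicate block made 40 calls over all probe sets for FRTL5 30 min, 867 for FRTL5 17 h, 916 for FRTL5 17 h against 30 min, and 8 and 365 for the line difference of the 30 min and 17 h effects, against 21, 311, 368, 3 and 69. Its member calls were 3 for FRTL5 17 h, 2 for 17 h against 30 min and 1 for the line difference at 17 h. Fits on only the groups compared gave 2, 96, 189, 1 and 22 over all probe sets, with 1 member probe set at FRTL5 17 h against basal and 1 against 30 min. Quantile normalization and the signal filter each gave 1 member for both of these, and quantile normalization 3 members between the lines at 17 h, against 5. Without the FRTL5 arrays numbered 1, calls were 45 for FRTL5 30 min and 25 for the line difference at 30 min. Without all arrays numbered 1, they were 52, 2 for FRT/TSHR 30 min, 2 for FRT/TSHR 17 h against 30 min and 25 for the line difference at 30 min, with 2 members at FRTL5 17 h and 1 against 30 min. Leaving out 1 array gave 12 to 44 calls for FRTL5 30 min, 152 to 253 for 17 h (0 to 1 members), 145 to 270 for 17 h against 30 min, 0 to 8 for FRT/TSHR 17 h against 30 min, 3 to 5 members between the lines at 17 h, and 1 to 24 and 33 to 83 for the line differences. Between the lines, where the correlations by number were less even, a block of the number shared by both lines made 10, 8 and 7 member calls. Without the block they were 8, 6 and 5. The share of all probe sets called with that block is not given here, so the rise cannot be read as particular to the members. The signal filter kept 14 of the 17 member probe sets, without Cdkn1b. Arrays give no depth, and 3 per group limit the precision.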
